A study of Mus musculus with 2 samples.

Results

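The miR-30 family of mouse is a set of microRNA (miRNA) genes at 3 genomic loci, and its 7 annotated genes were taken by name from the 2202 genes of the deposited tables. They are Mir30a, Mir30b, Mir30c-1, Mir30c-2, Mir30d and Mir30e, together with Mir30f, which is annotated on the opposite strand of Mir30e. They were measured by microRNA sequencing of total RNA from the cerebral cortex of strain B6NCrl mice. All libraries belong to 1 group, wild-type controls, and there was no treatment, other genotype or other tissue. That group holds 2 libraries, numbered as biological replicates 1 and 2. Both cite 1 donor record. The labels describe the tissue as female, but their fields for sex and age read as not collected, and separate animals are not stated, so the spread between the libraries may be technical.

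A miRNA is cut from the stem of a hairpin precursor, whose arms are called 5p and 3p after the end they lie nearest. The mature strand guides Argonaute proteins to messenger RNAs, mainly by pairing through its seed, bases 2 to 8. Members of a family share a seed and can therefore recognise overlapping sets of messages. The miR-30 family is expressed in many tissues, brain included. It is known for repressing the autophagy gene Beclin 1 in human cells, and brain-derived neurotrophic factor is among the described targets of miR-30a.

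RefSeq (GRCm38.p6) gave mature sequences for 5 of the 7 genes, and Mir30b and Mir30d are described by name only. The 5p arms are shown because they carry the family seed, in capitals, and because they differ so little that the position of each read rests on few bases.
miR-30a-5p (Mir30a): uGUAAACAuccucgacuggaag
miR-30e-5p (Mir30e): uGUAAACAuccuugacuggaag
miR-30c-5p (Mir30c-1 and Mir30c-2): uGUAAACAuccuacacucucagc
miR-384-5p (Mir384): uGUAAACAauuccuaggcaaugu
miR-30f (Mir30f): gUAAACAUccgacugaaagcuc

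The first 3 of these share their leading 12 bases. With positions counted from 1 at the 5′ end, miR-30a-5p and miR-30e-5p differ at 1 of 22 bases, C13U, where the miR-30a base is written first. Of all RefSeq mature entries, the only gene outside the family with the same bases 2 to 8 was Mir384, on the X chromosome, whose 5p arm shares 8 leading bases with those of Mir30a, Mir30c and Mir30e. The sequence of miR-30f is different in register. It holds the same seed letters from its base 1 rather than its base 2, so that its own bases 2 to 8 do not match the family.

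The 3p arms are given because they separate Mir30c-1 from Mir30c-2, whose 5p arms are the same, again with bases 2 to 8 in capitals.
miR-30a-3p (Mir30a): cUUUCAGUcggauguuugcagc
miR-30e-3p (Mir30e): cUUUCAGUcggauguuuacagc
miR-30c-1-3p (Mir30c-1): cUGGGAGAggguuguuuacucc
miR-30c-2-3p (Mir30c-2): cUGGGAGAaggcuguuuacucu

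The 3p arms of Mir30a and Mir30e also differ at 1 base, G18A. Those of Mir30c-1 and Mir30c-2 differ at 3 bases, G9A, U12C and C22U, with the Mir30c-1 base first. The hairpins of the Mir30c genes are shown with their longest shared run in capitals, since a read from within that run has no base that tells the loci apart.
Mir30c-1 hairpin: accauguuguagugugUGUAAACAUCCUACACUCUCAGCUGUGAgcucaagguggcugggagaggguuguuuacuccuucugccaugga
Mir30c-2 hairpin: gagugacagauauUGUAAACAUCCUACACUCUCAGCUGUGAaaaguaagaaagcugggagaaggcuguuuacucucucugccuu

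The shared run is 28 bases long and holds the whole 5p arm of 23 bases. Reads that mapped to more than 1 place entered no gene's count, and they were 47.9% of all reads in replicate 2 and 43.9% in replicate 1. The values of Mir30c-1 and Mir30c-2 are therefore not levels of mature miR-30c-5p.

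The members lie at 3 loci in mm10 coordinates, counted from 1. On chromosome 1, plus strand, Mir30a (23272269 to 23272339) lies outside longer annotated genes, and Mir30c-2 (23291701 to 23291784) lies in an exon of the long noncoding RNA Gm27028, 19361 bases away. On chromosome 4, minus strand, Mir30c-1 (120769534 to 120769622) and Mir30e (120772606 to 120772697) lie in introns of Nfyc, which encodes a subunit of the transcription factor NF-Y. Mir30f has exactly the interval of Mir30e, on the plus strand. On chromosome 15, minus strand, Mir30b (68337415 to 68337510) lies outside longer annotated genes, and Mir30d (68341208 to 68341289) lies in an exon of the long noncoding RNA Gm20732.

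Replicate 2 held 6985784 sense counts over all genes and replicate 1 held 4429633. Levels are given as CPM, the count of a gene scaled to 1000000 sense counts of its library, so that a count of 0 allows up to 0.429 CPM in replicate 2 and 0.677 CPM in replicate 1. Intervals and limits cover counting error only, as the tables carry no molecular identifiers. Neuronal content was looked at with a marker list, which cannot tell the cortex from other neuronal tissue. All 10 neuronal miRNA genes of the marker list had a count, and 7 reached the minimum of 2 CPM in both libraries. The other 3 are the Mir124a copies, with counts of 4 to 16 in replicate 2 and 3 to 7 in replicate 1. These counts, too, leave out reads that mapped to more than 1 place. The list held 9.09% of the sense counts in replicate 2 and 7.37% in replicate 1. Mir132 alone supplied 430224 of the list's 634975 counts in replicate 2 and 188571 of 326445 in replicate 1. By CPM, Mir132, Mir128-1, Mir128-2 and Mir137 were higher in replicate 2. Mir598, Mir138-1 and Mir138-2 were lower there, so the list total does not speak for all its genes.

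The family held 2.65% of the sense counts in replicate 2 (95% Wilson interval 2.64 to 2.66) and 1.78% in replicate 1 (1.76 to 1.79). A single gene, Mir30d, held most of these counts, and the mean levels of the 6 members with a count ran from 15810 CPM down to 84.3 CPM. The median member had a mean level of 329 CPM, against 57.8 CPM for the 438 genes at 2 CPM or more in both libraries and 0 CPM over all genes. Of the 7 members, 6 reached that minimum. These levels describe genes that were chosen by name, and no test was made on them.

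Mir30d was the highest member, with 137208 sense counts (19641 CPM) in replicate 2 and 53064 (11979 CPM) in replicate 1. It ranked 12 among all genes in replicate 2 and 20 in replicate 1, and its mean level was 15810 ± 5418 CPM (SD, n = 2). Mir30a, its closest follower, had 35984 counts (5151 CPM) in replicate 2 and 14007 (3162 CPM) in replicate 1. Both genes were higher in replicate 2.

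Mir30e, the third in order, ran the other way. It had 7839 counts (1122 CPM) in replicate 2 and 8980 (2027 CPM) in replicate 1, although replicate 2 was the more deeply sequenced library. Its rank was 86 in replicate 2 and 69 in replicate 1. Mir30e is thus the member whose count was lower in the deeper library.

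The Mir30c genes were lower and nearly equal between the libraries. Mir30c-2 had 2277 counts (326 CPM) in replicate 2 and 1473 (333 CPM) in replicate 1. Mir30c-1 had 1308 counts (187 CPM) in replicate 2 and 884 (200 CPM) in replicate 1. As set out above, reads of the arm they share are missing from both.

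Mir30b, which lies 3697 bases from Mir30d on the same strand, was the lowest member with a count. It had 686 counts (98.2 CPM) in replicate 2 and 312 (70.4 CPM) in replicate 1. Mir30f had 0 sense counts in both libraries. The order was thus Mir30d, Mir30a, Mir30e, Mir30c-2, Mir30c-1, Mir30b and Mir30f in each library, and no library range of one gene overlapped that of its neighbour in the order. Precursors are 71 to 96 bases long, and the order of the mean levels was the same per 100 precursor bases, from 19281 CPM for Mir30d to 87.8 CPM for Mir30b.

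**Figure D1:**
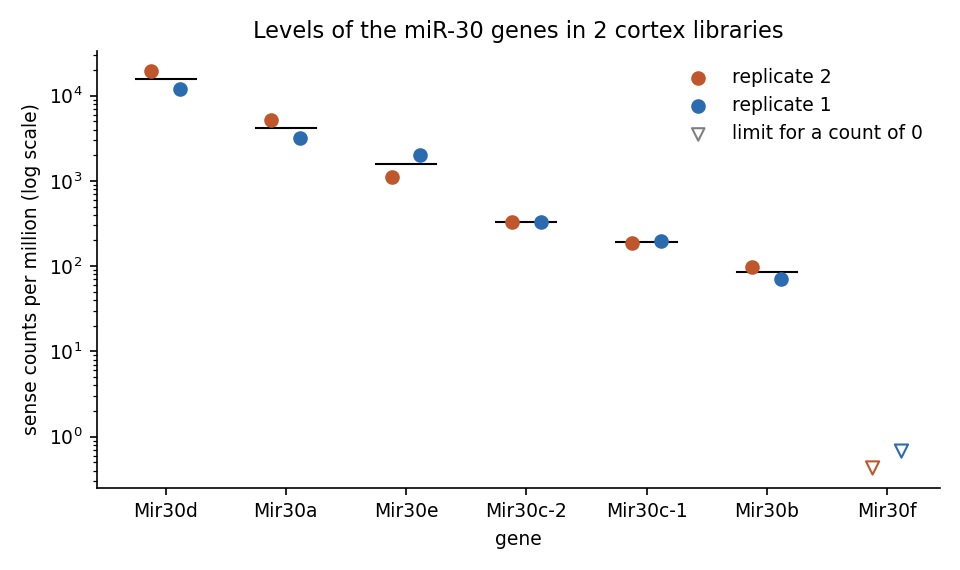
Sense CPM (log scale) of the 7 miR-30 genes in replicate 2 and replicate 1 of wild-type cortex, with the mean of the 2 libraries as a line. Mir30d, at 19641 and 11979 CPM, stands above all other members, Mir30e is the member with the plainly lower point in replicate 2, and open triangles mark the limit of 0.429 and 0.677 CPM for the count of 0 of Mir30f.

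The division of the family's own counts does not depend on library scaling. Mir30d took 74.0% of them in replicate 2 (Wilson interval 73.8 to 74.2) and 67.4% in replicate 1 (67.1 to 67.7). Mir30a took 19.4% in replicate 2 and 17.8% in replicate 1. Mir30e took 4.23% in replicate 2 (4.14 to 4.32) and 11.4% in replicate 1 (11.2 to 11.6), the widest relative gap among the members with counts.

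The remaining members were minor by this measure, in which reads of the 5p arm shared by the Mir30c genes are missing. Mir30c-2 took 1.23% in replicate 2 and 1.87% in replicate 1, and Mir30c-1 took 0.706% in replicate 2 and 1.12% in replicate 1. Mir30b stayed at 0.370% in replicate 2 and 0.396% in replicate 1, with overlapping intervals (0.344 to 0.399 and 0.355 to 0.443). Summed by locus, chromosome 15 held 74.4% of the family's counts in replicate 2 and 67.8% in replicate 1, chromosome 1 held 20.6% and 19.7%, and chromosome 4 held 4.94% and 12.5%.

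**Figure D2:**
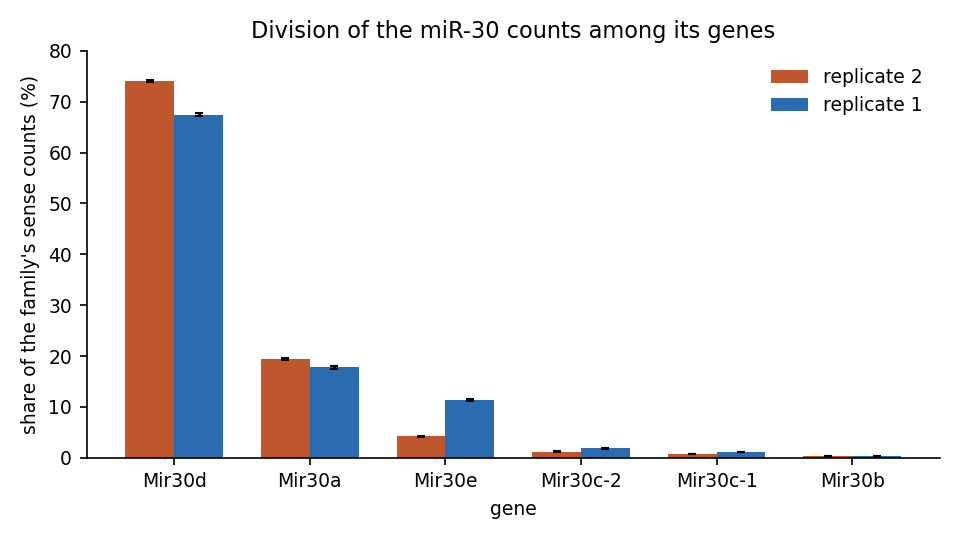
Share of the family's sense counts (%) held by each miR-30 gene with a count, in replicate 2 and replicate 1, with 95% Wilson intervals as error bars. Mir30d holds 74.0% and 67.4%, and the bar of Mir30e is at 4.23% in replicate 2 and 11.4% in replicate 1.

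Neighbours at one locus were compared within each library, where scaling cancels. At each of the 3 loci one gene had several times the counts of the other. At the loci of Mir30c-2 and Mir30c-1 the lower gene lacks reads of the arm that these genes share. The balance with those reads included was not tested. Mir30d had 200.01 times the counts of Mir30b in replicate 2 and 170.1 times in replicate 1, a mean log2 ratio of 7.53 ± 0.17 (SD, n = 2). The comparison set was 90 other adjacent same-strand gene pairs within 20 kb, both genes at 2 CPM or more in both libraries. Of these, 6 were more unequal than Mir30d with Mir30b, and the median pair differed by 2.84 on the log2 scale. Counts of the other pairs also leave out reads that mapped to more than 1 place.

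Mir30a had 15.8 times the counts of Mir30c-2 in replicate 2 and 9.51 times in replicate 1. Mir30e had 5.99 times those of Mir30c-1 in replicate 2 and 10.2 times in replicate 1. Of the 90 other pairs, 33 were more unequal than Mir30a with Mir30c-2 and 42 more unequal than Mir30e with Mir30c-1, whose mean log2 ratios were 3.62 and 2.96. These ratios, and so their places among the pairs, rest on counts without the reads of the shared arm. The exact 95% intervals of the log2 ratio did not overlap between the libraries for either pair. The balance of Mir30a to Mir30c-2 was higher in replicate 2 by 0.73 on the log2 scale, and that of Mir30e to Mir30c-1 was lower by 0.76. Among the 90 other adjacent pairs the median size of such a difference was 0.69, and 43 and 40 of them exceeded these values, while 75 exceeded the 0.23 of Mir30d to Mir30b.

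Balances between loci were looked at for pairs chosen after their values were seen. Those of Mir30d to Mir30a and of Mir30c-2 to Mir30c-1 held closely, and those with Mir30e did not. Mir30d had 3.81 times the counts of Mir30a in replicate 2 and 3.79 times in replicate 1, though they lie on chromosomes 15 and 1. Mir30c-2 had 1.74 times those of Mir30c-1 in replicate 2 and 1.67 times in replicate 1, with overlapping exact intervals. The 5p arm of Mir30e differs from that of Mir30a at 1 base. Mir30e had 0.218 times the counts of Mir30a in replicate 2 and 0.641 times in replicate 1, a difference of -1.56 on the log2 scale. Mir30d had 17.5 times the counts of Mir30e in replicate 2 and 5.91 times in replicate 1, a log2 difference of 1.57.

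**Figure D3:**
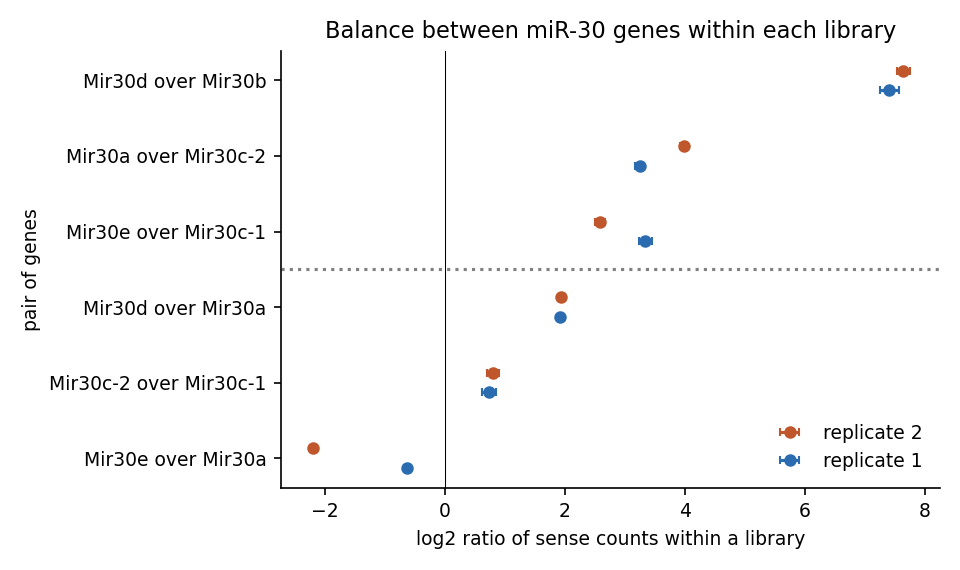
Log2 ratio of sense counts between pairs of miR-30 genes in replicate 2 and replicate 1, with exact 95% counting intervals. The first 3 rows are neighbours at 1 locus and the last 3 are genes of different loci. Counts of Mir30c-1 and Mir30c-2 leave out reads of the arm they share. Mir30d over Mir30a is at 1.93 and 1.92, while Mir30e over Mir30a is at -2.20 in replicate 2 and -0.64 in replicate 1.

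The 2 libraries were then compared gene by gene with an exact two-sided binomial test on counts, given library sizes scaled by the trimmed mean of M values (TMM), with Benjamini-Hochberg adjustment over the 438 tested genes. It compares these libraries and their counting error, not conditions. With calls made at an adjusted p below 0.05 where the libraries also differed by 2 times or more, none of the 6 tested members was called, against 18.0% of all tested genes. With a limit of 1.5 times, 4 members were called, against 39.0% of tested genes. They were Mir30d, Mir30a and Mir30b, higher in replicate 2 as were 18.3% of tested genes, and Mir30e, higher in replicate 1 as were 20.8%. Without a limit on the ratio the same 4 were past an adjusted p of 0.05, against 63.9% of tested genes.

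Log2 ratios of replicate 2 over replicate 1 were 0.84 for Mir30d (exact 95% interval 0.82 to 0.85), 0.83 for Mir30a (0.80 to 0.86) and 0.60 for Mir30b (0.41 to 0.80). In the order of the 438 ratios, Mir30a and Mir30d stood next to each other, with 386 and 387 genes below them. Mir30e had a log2 ratio of -0.73 (-0.77 to -0.68), with 76 genes below it. Mir30c-2 had 0.10 (0.00 to 0.19, adjusted p = 0.0711, exact binomial test) and Mir30c-1 had 0.03 (-0.09 to 0.16, adjusted p = 0.689, exact binomial test), and both turned negative with library totals in place of TMM (-0.03 and -0.09) and with the trend in precursor GC content removed (-0.25 and -0.05). For Mir30c-2 the adjusted p of this test depended on the setting, being 0.012 with DESeq2 size factors (log2 ratio 0.13), 1.8e-04 with no filter on low counts (0.19) and 4.4e-07 with the GC trend removed (-0.25), so that its direction past 0.05 was not the same throughout, and 0.651 with library totals, the highest of its alternatives. The median of the 6 members was 0.35 and that of all tested genes was -0.03. With library totals the median of all tested genes was -0.16.

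**Figure D4:**
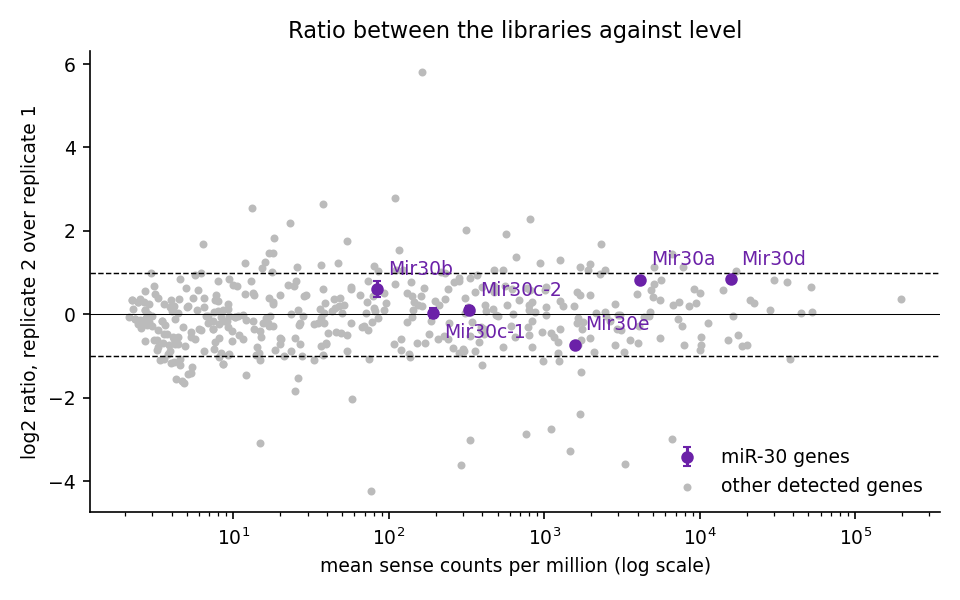
Log2 ratio of replicate 2 over replicate 1 (TMM-scaled) against mean sense CPM (log scale) for the 6 tested miR-30 genes, with exact 95% intervals, and the other tested genes in grey. Dashed lines mark a ratio of 2 in either direction. Mir30d and Mir30a lie at 0.84 and 0.83 and Mir30e at -0.73, all within the dashed lines.

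Other quantities also moved between the libraries. The choroid plexus and ependyma list, with 5 of 5 genes detected, summed to 2471 CPM in replicate 2 and 1173 CPM in replicate 1. Sums in the endothelial and mural list (3 of 3 detected) came to 5428 and 4286 CPM. In that list Mir126a was higher in replicate 2 (2948 and 1641 CPM). Mir143 (2063 and 2215 CPM) and Mir145a (417 and 430 CPM) were lower there. The microglia and leukocyte list (4 of 5 symbols matched, 4 detected) summed to 1282 and 896 CPM. Mir150 made up most of this sum, with 1207 and 837 CPM. Mir155 was also higher in replicate 2 (66.4 and 47.4 CPM), while Mir142 (2.58 and 4.52 CPM) and Mir223 were lower there. By their sums, the epithelium list (7 of 7 detected) and the Mir183 cluster of sensory organs (3 of 3 detected) were lower in replicate 2. These sums were 2060 and 1625 CPM there, against 12838 and 14691 CPM in replicate 1. Mir203 of the epithelium list ran the other way, being higher in replicate 2 (68.0 and 46.7 CPM). All other genes of both lists were lower there.

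Sums of the oligodendrocyte list (2 of 2 detected) were 7841 CPM in replicate 2 and 7099 CPM in replicate 1. Mir219a-2 was higher in replicate 2 (5475 and 4461 CPM) and Mir338 was lower (2366 and 2638 CPM). Red blood cell genes were near 0, with none of 2 detected and sums of 10.7 and 2.48 CPM, and of 4 muscle genes 3 had no count (Mir1a-1, Mir1a-2 and Mir133a-2) and the list summed to 29.5 and 19.9 CPM. Fewer cells of a type and less RNA per cell cannot be told apart in whole tissue. Over the tested genes this ratio followed the base composition of the precursor too, from a median log2 of 0.45 in the fifth of genes with the lowest GC content to -0.53 in the fifth with the highest. The tested members had GC contents of 42.9% (Mir30c-2) to 52.1% (Mir30a), and Mir30e, at 51.1%, lay between Mir30d at 50.0% and Mir30a. With the GC trend removed the log2 ratios were 0.76 for Mir30d, 0.76 for Mir30a and -0.80 for Mir30e. The part of cell content in the ratios of the members was not tested.

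Strand decided the value of Mir30e. Its counts were all on its own strand, with 0 opposite-strand counts in both libraries, as for Mir30a, Mir30b, Mir30c-1, Mir30c-2 and Mir30d. Mir30f showed the mirror image, with 7839 opposite-strand counts in replicate 2 and 8980 in replicate 1, the same numbers as the sense counts of Mir30e. In the either-strand column both genes stood at 0. These reads are 1.99% of the reads set aside there as ambiguous in replicate 2 and 4.13% in replicate 1.

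The mature miR-30f printed above is the exact reverse complement of a stretch of the Mir30e hairpin and spans 19 of the bases of miR-30e-3p on the other strand. A sense count of Mir30f would therefore be a read antisense to Mir30e, and none was counted. Among all genes, 32 pairs overlap on opposite strands and 3 of them have identical intervals. Of the 30 pairs with any sense count, 21 had all of it on one side in both libraries, so the pattern of Mir30e and Mir30f was the common one.

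Mir384 shares the family seed and has been studied in rodent neurons for a part in long-term potentiation. It lies on the X chromosome (105344282 to 105344369) and had 537 counts (76.9 CPM) in replicate 2 and 304 (68.6 CPM) in replicate 1. Its mean of 72.7 ± 5.83 CPM (SD, n = 2) was below that of Mir30b, but the library ranges of these genes overlapped. Its log2 ratio was 0.29 (exact 95% interval 0.08 to 0.50).

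The genes nearest to Mir30d in level over the 2 libraries, by distance in log2 CPM, were Mir22 (22328 CPM in replicate 2 and 11771 CPM in replicate 1), Mir29a (16226 and 11801 CPM) and Mir125a (15522 and 17383 CPM). Their distances from Mir30d were 0.19, 0.28 and 0.64 on the log2 scale. With 2 libraries this likeness describes level more than pattern.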

How the data were processed

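The authors deposited 1 table of raw counts per library, with a line for each annotated miRNA gene and columns for either strand, the sense strand and the opposite strand. Per the deposited readme text and the labels, assembly mm10 and annotation M21 were used, and RNA under a size limit was sequenced. The trimming document cited differs between the libraries, so trimming and replicate cannot be told apart. For the aligner and the counter, the sources used here give no name. The 4 summary lines without a gene name were left out of library sizes. Unmapped reads were 11.1% in replicate 2 and 17.0% in replicate 1. All 2202 identifiers matched GENCODE M21, the source of coordinates, hosts and GC content.

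The sense column was taken by its position, and in both libraries its total was larger than that of the opposite-strand column. TMM factors came from edgeR 4.0.16 and size factors from DESeq2 1.42.0 (R 4.3.3). Binomial tests and intervals were made in scipy 1.17.1, with 0.5 counts added for log2 ratios. Medians in 5 bins of GC content gave the GC trend. The members, lists and tests were chosen with earlier results of these data known. Named genes were all members, genes with the seed of miR-30a-5p or overlapping a member on the opposite strand, the 3 genes nearest to Mir30d in level, and marker lists. Alternatives were the either-strand column, other scalings, no filter on low counts, a ratio of 1.5, the GC trend, other members or denominators for the family share, and each library alone.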

Additional observations from a re-analysis of the deposited data

How the results depend on the processing

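The family share of 2.21% ± 0.619 (SD, n = 2) was 2.17% with the either-strand column, in which Mir30e is 0 and adds nothing. The share was 2.16% without Mir30c-1 and Mir30c-2, 2.04% over all uniquely placed reads, and 1.78% to 2.65% with each library alone. All of these shares leave out reads that mapped to more than 1 place, so the part of those reads was not tested. The number of members called between the libraries was 0 with TMM (18.0% of all tested genes called), library totals (19.2%), DESeq2 size factors (17.8%), no filter (11.4%), the GC trend removed (13.2%) and the either-strand column (17.1%), and 4 at a ratio of at least 1.5 (39.0%). The directions of Mir30d, Mir30a, Mir30b and Mir30e held under each of these for which they could be tested. Log2 ratios of Mir30c-2 and Mir30c-1 were -0.029 and -0.092 with library totals and -0.254 and -0.054 with the GC trend removed, against 0.10 and 0.03 with TMM. Left alone, either library kept the direction of the balances, which ran from 7.41 to 7.64 for Mir30d over Mir30b, 3.25 to 3.98 for Mir30a over Mir30c-2 and 2.58 to 3.34 for Mir30e over Mir30c-1. The last has no value in the either-strand column, where Mir30e is 0. The opposite-strand count of Mir30f was 7839 to 8980. No paired analysis was possible because the series has only 1 group. The depth allows no statement on Mir30f below 0.429 CPM.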
